A study of Homo sapiens with 24 samples.

Results

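Transcript levels of 10 Fanconi anemia genes were followed in LNCaP cells after siRNA knockdown of the lncRNAs TAPIR-1 and TAPIR-2. The members were FANCA, FANCC, FANCE, FANCF, FANCG and FANCL of the core complex, the pair FANCD2 and FANCI, and the downstream members BRIP1 and PALB2. They were found through the RefSeq accession of each array probe, which gave 17 probes of 50599 on the 24 h arrays and the same 17 of 58201 on the 48 h arrays. All 10 had at least 1 probe above the background threshold, among 19497 genes at 24 h and 19385 at 48 h that could be named in this way.

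LNCaP is an established androgen-sensitive prostate cancer cell line. It received, by electroporation, the siRNA si-A1 against TAPIR-1, the siRNA si-A2 against TAPIR-2, or a scramble control siRNA, each as 1 siRNA sequence, and no untransfected cells were among the samples. RNA was taken 24 h and 48 h later from 4 biological replicates per siRNA, giving 24 one-colour Agilent arrays, 1 per sample, of a different array version at each time point. Levels are given as log2 intensity after quantile normalization between the arrays of a time point. One 48 h si-A2 array, replicate 2, had a median intensity of 13.9, against 20.4 to 32.2 on the other 48 h arrays, and was left out, so 23 arrays were used.

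The Fanconi anemia pathway repairs DNA interstrand crosslinks that block the replication fork. In it, the core complex acts as a ubiquitin ligase, with FANCL as its catalytic subunit, and attaches ubiquitin to FANCD2 and FANCI, which form a clamp on the DNA. Downstream members then take part in homologous recombination, where PALB2 brings recombination proteins together and BRIP1 is a DNA helicase. Many genes of the pathway are transcribed mainly in late G1 and S phase in dividing cells, where E2F factors act.

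The promoters were searched for E2F motifs because several members fell together in these samples. Of the 10 members, 9 were matched in the RefSeq promoter table of GRCh38.p14, and FANCI was not. The table holds 250 bases before and 50 after each gene start. On both strands, the words TTTGGCGC, TTTCGCGC, TTTCCCGC and TTTGCCGC of the E2F motif and the CCAAT box were searched, and no match overlapped another. At least 1 of the 4 E2F words stood in 3.31% of all 35116 promoters, and CCAAT stood in 34.6%. The words were present in 3 members, FANCA, FANCC and FANCD2, and CCAAT in 4, FANCA, FANCF, BRIP1 and PALB2. Printed are these 3 and FANCF, a member whose level stayed near that of the control, as the 200 bases before the start (for FANCD2 also the 6 bases after it), 5′ to 3′ on the strand of the gene. Capitals mark the E2F words and CCAAT, and a word on the opposite strand appears as its reverse complement.
FANCA promoter, chr16:89816648-89816847, minus strand: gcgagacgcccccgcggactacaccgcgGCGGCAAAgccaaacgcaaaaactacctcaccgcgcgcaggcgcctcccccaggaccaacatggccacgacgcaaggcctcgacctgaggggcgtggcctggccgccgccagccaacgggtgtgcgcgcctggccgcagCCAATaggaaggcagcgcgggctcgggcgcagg
FANCC promoter, chr9:95317710-95317909, minus strand: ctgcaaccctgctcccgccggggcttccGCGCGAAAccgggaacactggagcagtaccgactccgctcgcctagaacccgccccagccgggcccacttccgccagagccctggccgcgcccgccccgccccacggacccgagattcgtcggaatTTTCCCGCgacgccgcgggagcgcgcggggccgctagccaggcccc
FANCD2 promoter, chr3:10026237-10026442, plus strand: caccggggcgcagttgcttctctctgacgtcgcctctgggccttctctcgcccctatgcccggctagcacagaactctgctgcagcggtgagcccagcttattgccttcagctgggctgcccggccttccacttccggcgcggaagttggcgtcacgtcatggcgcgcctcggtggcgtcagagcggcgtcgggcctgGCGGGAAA
FANCF promoter, chr11:22625824-22626023, minus strand: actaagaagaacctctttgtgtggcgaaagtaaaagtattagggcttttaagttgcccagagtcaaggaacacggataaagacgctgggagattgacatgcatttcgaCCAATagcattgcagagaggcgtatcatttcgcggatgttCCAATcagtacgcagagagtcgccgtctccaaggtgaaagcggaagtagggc
In FANCD2 the word spans the gene start, from 2 bases before it to base 6 of the transcript. FANCC has 2 starts in the table, of which only the one shown holds the words, with first bases at -172 and -46 where -1 is the base just before the start. FANCE, FANCG and FANCL held neither an E2F word nor CCAAT, and FANCG was called lower after both siRNAs at both time points. A match is a description of the letters and not a measured site of binding, and a link between the words and the levels was not tested.

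At 24 h the arrays used had median processed intensities from 24.4 to 57.2, and at 48 h from 20.4 to 32.2, and no probe was saturated. Each time point was run on 2 slides that held replicates of all 3 siRNAs. No probe for TAPIR-1 was identified. The TAPIR-2 probe had a level of 5.04 ± 0.20 (SD, n = 4) after scramble, 4.64 ± 0.32 after si-A1 and 4.06 ± 0.74 after si-A2 at 24 h. The si-A2 values were 4.70, 3.12, 4.61 and 3.82, all below the lowest scramble value of 4.81, but 3.12 and 3.82 were not well above background. The log2 fold change of -0.98 missed the threshold (limma adjusted p = 0.230). At 48 h the same probe had 4.64 ± 0.58 after scramble and 4.68 ± 0.90 after si-A2 (SD, n = 4 and 3), so the arrays give no check of the si-A2 knockdown at that time. All 9 luminal prostate markers, among them KLK3, were well above background on every array used, while of the basal markers KRT5 was on none, KRT14 on 10 of 12 arrays at 24 h and 10 of 11 at 48 h, and TP63 on 7 and 1. Of the neuroendocrine markers CHGA was on none and SYP on 9 and 8. Of the stroma markers COL1A1 was on 3 and 0, DCN on 2 and 11, and VIM on 12 and 10. Probes of the leukocyte genes PTPRC and CD3E were well above background on every array in all 3 groups.

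At 24 h, FANCI, FANCA and FANCG fell after both siRNAs, FANCC after si-A1 and FANCD2 after si-A2, while FANCF and PALB2 stayed close to the control. Genes were read by their brightest probe and called where the limma adjusted p was under 0.01 and the level moved by 0.5 or more on the log2 scale, up or down. After si-A1, 4 of the 10 members were called lower (FANCI, FANCA, FANCG and FANCC), against 1.02% of the 44849 probes tested. After si-A2, 4 of 10 were called lower (FANCD2, FANCI, FANCA and FANCG), against 0.838% of the probes. None was called higher. The median log2 fold change of the 10 members was -1.22 with si-A1 and -1.28 with si-A2, and that of all probes was 0.04 with either siRNA. With BRIP1, which was only bounded after si-A2, set to its bound, the si-A2 median was -1.17. In bulk RNA, fewer cells in the phase that expresses these genes and less RNA per cell cannot be told apart.

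**Figure D1:**
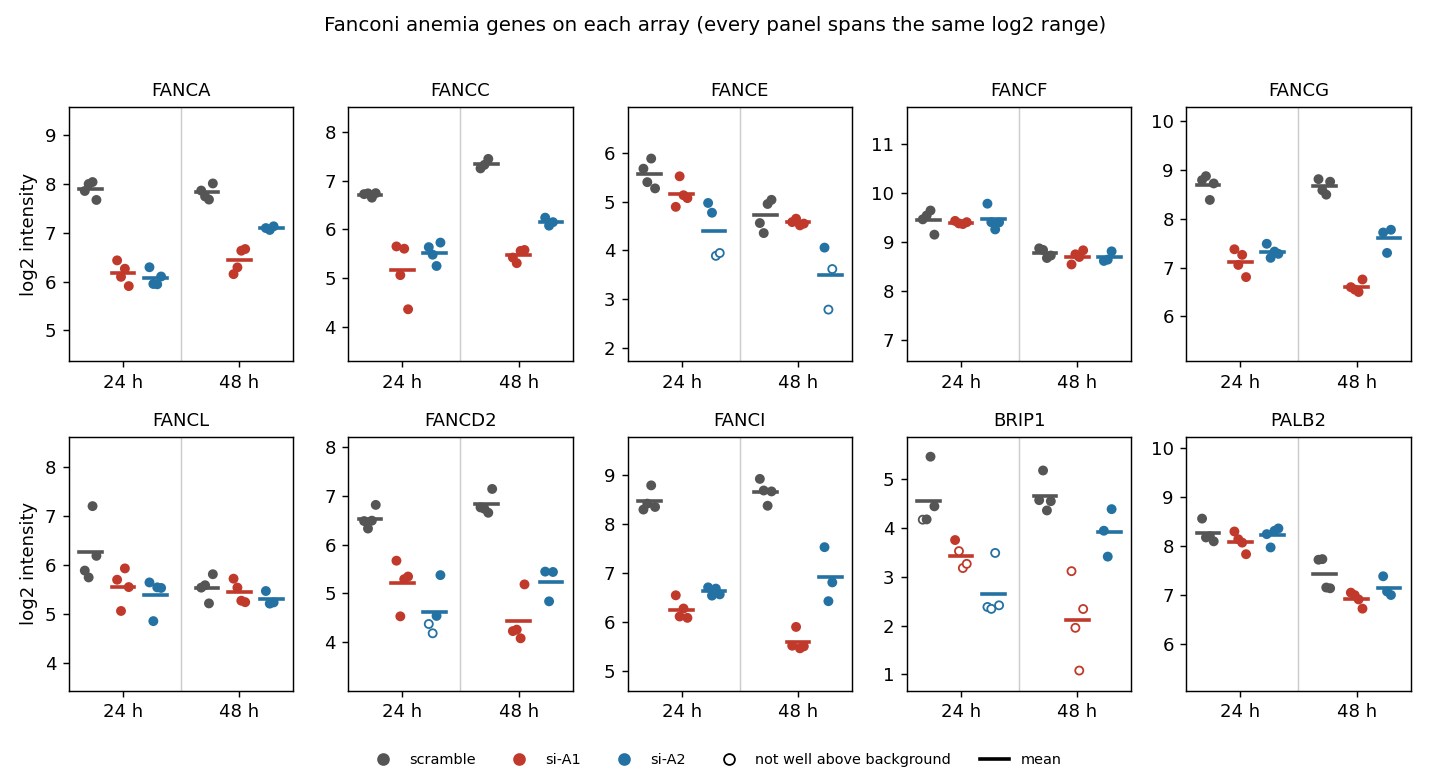
Log2 intensity (y axis) of each Fanconi anemia gene on each array at 24 h and 48 h (x axis), read by the probe that was brightest at 24 h. Points are arrays coloured by siRNA, open points were not well above background, lines are group means, and every panel spans the same range. FANCI and FANCG lie below all scramble arrays after both siRNAs at both time points, and FANCF and PALB2 overlap with scramble at 24 h.

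FANCI (chromosome 15, 89243979 to 89317259 in GRCh38.p14) encodes the partner of FANCD2 in the clamp. At 24 h its 4 scramble values were 8.30, 8.42, 8.79 and 8.35. They were 6.54, 6.11, 6.27 and 6.08 after si-A1, and 6.71, 6.54, 6.68 and 6.56 after si-A2. Both siRNA groups lay more than 1 log2 unit below the lowest scramble array. The log2 fold change was -2.21 with an SE of 0.16 after si-A1 (4.64-fold lower, limma adjusted p = 5.5e-05). After si-A2 it was -1.84 with an SE of 0.16 (3.59-fold lower, adjusted p = 0.000112).

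FANCD2 (chromosome 3, 10026437 to 10101932), the other substrate of the ubiquitin ligase, had scramble values of 6.48, 6.33, 6.49 and 6.81. The si-A1 values were 5.67, 4.53, 5.29 and 5.35, and the si-A2 values were 4.37, 4.18, 4.54 and 5.38, 2 of which were well above background. Neither siRNA group overlapped with scramble, but the spread within each, 0.48 and 0.52 (SD), was wider than the 0.20 of the control. FANCD2 fell after si-A2, with a log2 fold change of -1.91 (SE 0.26, adjusted p = 0.00261). After si-A1 the value was -1.32 (SE 0.26, adjusted p = 0.0238) and missed the threshold. The si-A2 call was lost when scramble replicate 1, 2 or 4 or si-A2 replicate 1, 2 or 3 was left out.

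Within the core complex the members differed. FANCA (chromosome 16, 89737549 to 89816647) had 7.85, 8.0, 8.04 and 7.67 after scramble. After si-A1 its values were 6.43, 6.10, 6.26 and 5.91, and after si-A2 they were 6.29, 5.95, 5.94 and 6.10. Neither siRNA group overlapped with scramble, and the log2 fold changes were -1.71 and -1.82 (SE 0.15 each, adjusted p = 0.000177 and 0.000103).

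FANCG (chromosome 9, 35073839 to 35079942), which binds FANCA in the complex, had 8.79, 8.87, 8.38 and 8.72 after scramble. Its values were 7.37, 7.05, 7.26 and 6.80 after si-A1 and 7.49, 7.20, 7.33 and 7.28 after si-A2. The groups did not overlap, and the log2 fold changes of FANCG were -1.57 and -1.37 (SE 0.15 each, adjusted p = 0.000327 and 0.000765). The calls of FANCI, FANCA and FANCG held without each array in turn.

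FANCC (chromosome 9, 95099054 to 95317709), which sits with FANCE and FANCF in one module of the complex, varied little after scramble (6.65 to 6.74). It was lower on every siRNA array, at 5.65, 5.06, 5.60 and 4.36 after si-A1 and at 5.64, 5.48, 5.25 and 5.73 after si-A2. FANCC fell by 1.54 on the log2 scale with si-A1 (SE 0.25, adjusted p = 0.00839) and was called there. With si-A2 its log2 fold change of -1.19 missed the threshold (adjusted p = 0.0421). The si-A1 call was lost without any 1 of 10 of the 12 arrays, all but si-A1 replicates 3 and 4, and the difference between both siRNAs was 0.35 (adjusted p = 0.704).

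FANCE, which links the core complex to FANCD2, had log2 fold changes of -0.40 and -1.16 with si-A1 and si-A2 (adjusted p = 0.504 and 0.0375), and 2 of its 4 si-A2 values were well above background. FANCL, the catalytic subunit, had -0.70 and -0.86 (adjusted p = 0.292 and 0.187). Its scramble value of 7.20 on replicate 3 stood above the other scramble values of 5.74 to 6.18, and without that array the fold changes were -0.44 and -0.60. FANCF, a small adaptor subunit, had 9.45 ± 0.21 after scramble, 9.39 ± 0.03 after si-A1 and 9.46 ± 0.23 after si-A2 (SD, n = 4). The 95% interval of its log2 fold change ran from -0.38 to 0.27 after si-A1 and from -0.31 to 0.33 after si-A2.

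Of the downstream members, PALB2 had levels of 8.26 ± 0.21, 8.08 ± 0.19 and 8.22 ± 0.17 after scramble, si-A1 and si-A2 (SD, n = 4). Its log2 fold changes were -0.17 (95% interval -0.52 to 0.17) and -0.04 (-0.38 to 0.31). BRIP1 was near background. It had 4.17, 4.17, 5.46 and 4.44 after scramble, 3 of them well above background, and 3.75, 3.52, 3.18 and 3.26 after si-A1, 1 of them well above background. After si-A2 no array was well above background, which puts BRIP1 at least 1.45-fold lower (adjusted p = 0.0109, not called). The bound sets the mean of scramble against the higher of the probe and the dimmest spot well above background on each si-A2 array.

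By class, the median log2 fold change at 24 h was -1.12 with si-A1 and -1.17 with si-A2 for the 6 core complex members, -1.77 and -1.88 for FANCD2 and FANCI, and -0.65 with si-A1 for the downstream pair. For that pair after si-A2, where BRIP1 had only a bound, the median was -0.97 as fitted and -0.29 with BRIP1 at its bound. Called lower were 3 and 2 core complex members, 1 and 2 of the FANCD2-FANCI pair, and 0 and 0 downstream members. The classes were not tested against each other. Each of them other than the FANCD2-FANCI pair held 1 member within 0.2 of no change after both siRNAs, FANCF in the core complex and PALB2 downstream.

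At 48 h, FANCI, FANCC and FANCG fell after both siRNAs, FANCD2, BRIP1 and PALB2 fell after si-A1, and FANCF and FANCL stayed near the control. After si-A1, 6 of the 10 members were called lower (FANCI, BRIP1, FANCD2, FANCG, FANCC and PALB2), against 3.98% of 45173 probes. After si-A2, 3 were called lower (FANCI, FANCC and FANCG), against 0.376%. None was called higher. The median log2 fold change of the members was -1.19 with si-A1 and -0.86 with si-A2, and that of all probes was 0.05 and 0.00. With BRIP1 at its bound the si-A1 median was -0.98. With the replicate number as a block, 5 members were called after si-A1, without PALB2, and 0 after si-A2, where the block also left 0 of all probes called lower. The si-A2 count at 48 h was 0 or 1 when any 1 of the 11 arrays was left out and 0 when only scramble and si-A2 arrays entered the fit.

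**Figure D2:**
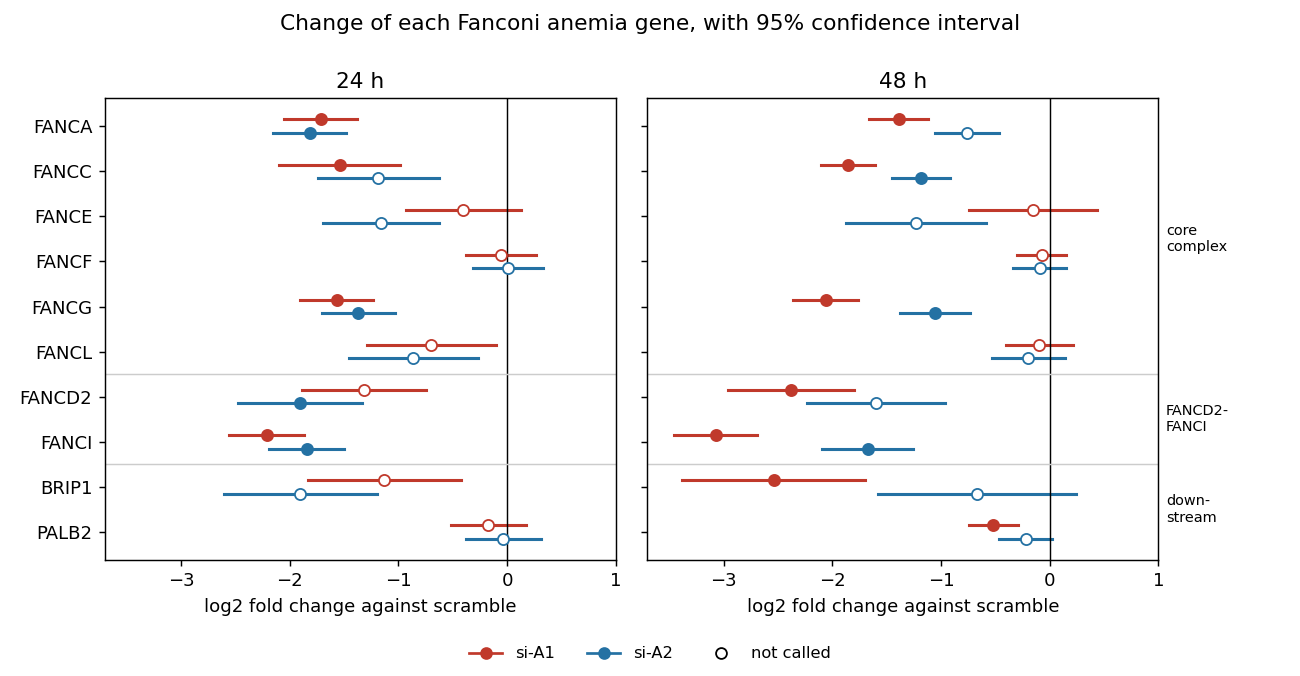
Log2 fold change against scramble (x axis) of each Fanconi anemia gene (y axis, by class) at 24 h and 48 h after si-A1 and si-A2, read by the probe that was brightest at 24 h. Points are limma estimates, lines are 95% confidence intervals and filled points were called. BRIP1 after si-A2 at 24 h and after si-A1 at 48 h was not well above background, so its point there is a fitted value of a level that was not measured, and not a bound. FANCI has the lowest value after si-A1 at both time points, and the interval of FANCF spans 0 in all 4 comparisons.

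FANCI had 8.93, 8.69, 8.38 and 8.67 after scramble at 48 h. After si-A1 it had 5.51, 5.90, 5.46 and 5.50, and on the 3 si-A2 arrays 7.53, 6.42 and 6.81. The 3 groups separated without overlap, with si-A2 in between. The log2 fold change was -3.07 after si-A1 (SE 0.17, 8.42-fold lower, adjusted p = 5.1e-05) and -1.68 after si-A2 (SE 0.19, 3.19-fold lower, adjusted p = 0.00487).

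FANCD2 had 6.76, 6.73, 6.65 and 7.14 after scramble, 4.23, 4.26, 4.08 and 5.19 after si-A1, and 5.45, 4.84 and 5.44 after si-A2. It fell by 2.38 on the log2 scale after si-A1 (SE 0.26, adjusted p = 0.000516). The si-A2 value of -1.60 missed the threshold (SE 0.28, adjusted p = 0.0222), although all 3 arrays lay below the control. The second, dimmer FANCD2 probe did not reach well above background on a si-A1 array at 48 h and was at least 3.99-fold lower there (adjusted p = 0.000271).

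FANCG had 8.81, 8.58, 8.49 and 8.76 after scramble, 6.60, 6.55, 6.50 and 6.76 after si-A1, and 7.72, 7.30 and 7.77 after si-A2. The 3 groups again stood apart, with log2 fold changes of -2.06 (SE 0.13, adjusted p = 5.1e-05) and -1.05 (SE 0.14, adjusted p = 0.00991). FANCC had 7.25, 7.32 and 7.44 on the 3 scramble arrays with a usable spot, 5.42, 5.31, 5.56 and 5.58 after si-A1, and 6.24, 6.08 and 6.15 after si-A2. The log2 fold changes of FANCC were -1.86 and -1.18 (SE 0.11 and 0.12, adjusted p = 6.23e-05 and 0.00444).

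BRIP1 had 4.57, 5.17, 4.36 and 4.55 after scramble, all well above background. After si-A1 it had 3.11, 1.95, 1.08 and 2.34, none of them well above background, and was at least 2.73-fold lower (adjusted p = 0.00260). After si-A2 the values of 3.94, 3.41 and 4.38 reached up to the scramble arrays (log2 fold change -0.67, adjusted p = 0.433). The si-A1 call was lost without si-A1 replicate 2 or scramble replicate 4.

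PALB2 had 7.72, 7.73, 7.15 and 7.13 after scramble and 7.04, 6.99, 6.91 and 6.72 after si-A1. The log2 fold change of -0.52 (SE 0.10, adjusted p = 0.00905) lay at the threshold, and the call was lost without any 1 of 10 of the 11 arrays, all but si-A1 replicate 3. FANCE had log2 fold changes of -0.15 with si-A1 and -1.23 with si-A2 (adjusted p = 0.766 and 0.0590), and 1 of its 3 si-A2 values was well above background. FANCL had -0.10 and -0.20, and FANCF -0.07 and -0.09. A dimmer FANCL probe had -0.85 after si-A1 (adjusted p = 0.0183), which differs from the -0.10 of the brightest one.

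FANCA is measured by 3 probes, and the 2 that passed the background threshold went apart at 48 h. The probe with 1 spot per array, described above, had 7.86, 7.74, 7.68 and 8.01 after scramble at 48 h, 6.15, 6.29, 6.63 and 6.67 after si-A1, and 7.09, 7.06 and 7.13 after si-A2. It fell by 1.39 after si-A1 (SE 0.12, adjusted p = 0.000157) and had -0.76 after si-A2 (adjusted p = 0.0213). The probe with 10 spots per array had 7.49 ± 0.28, 7.58 ± 0.49 and 7.65 ± 0.69 after scramble, si-A1 and si-A2 (SD, n = 4, 4 and 3), with log2 fold changes of 0.09 and 0.03.

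At 24 h this 10-spot probe had been lower on every siRNA array, with 6.55 ± 0.11 after scramble and log2 fold changes of -1.50 and -1.28 (adjusted p = 0.0120 and 0.0341). Its 10 spots lay close together on each 48 h array, with an SD between 0.04 and 0.10. The 10-spot probe was the brightest FANCA probe at 48 h and thus read FANCA in the counts above. Read by the 1-spot probe, FANCA joined the called members and 7 of 10 were called lower after si-A1 at 48 h. Since the probe has the same name on both array versions, the files do not show which reading holds at 48 h.

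**Figure D3:**
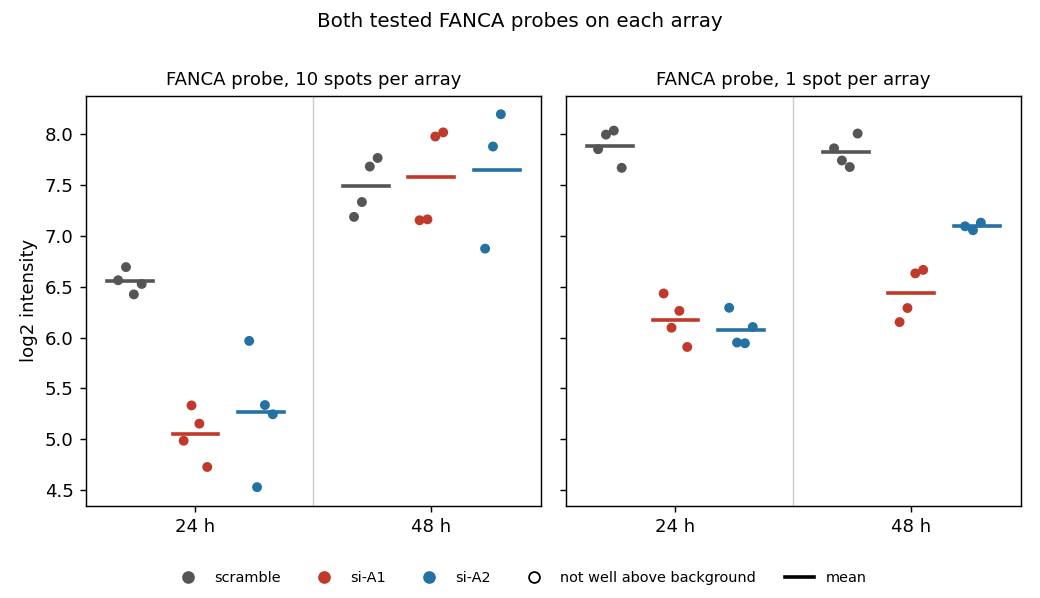
Log2 intensity (y axis) of both tested FANCA probes on each array at 24 h and 48 h (x axis). Points are arrays coloured by siRNA and lines are group means. Both probes are lower after either siRNA at 24 h, and at 48 h the 10-spot probe overlaps between the groups while the 1-spot probe separates them.

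By class, the median log2 fold change at 48 h was -2.73 with si-A1 and -1.64 with si-A2 for FANCD2 and FANCI, and -0.45 with si-A2 for BRIP1 and PALB2. With si-A1, where BRIP1 had only a bound, that of the downstream pair was -1.53 as fitted and -0.98 with BRIP1 at its bound. For the core complex it was -0.12 and -0.63 with FANCA read by the 10-spot probe and -0.77 and -0.91 with the 1-spot probe. Called lower after si-A1 were 2 of 6 core complex members, both of the FANCD2-FANCI pair and both downstream members. After si-A2 the counts were 2, 1 and 0.

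Set directly against each other, the siRNAs differed at 48 h for FANCI and FANCG, while no member was called at 24 h. At 24 h, 0 of 10 members were called between si-A2 and si-A1 in either direction, against 0.366% of the probes tested, and the differences of the members other than BRIP1 ran from -0.76 for FANCE (95% interval -1.29 to -0.23, adjusted p = 0.203) to 0.37 for FANCI. At 48 h, 2 of 10 were called higher with si-A2 than with si-A1, against 0.985% of the probes. FANCI was higher by 1.40 (SE 0.19, adjusted p = 0.00454) and FANCG by 1.00 (SE 0.14, adjusted p = 0.00632). With the replicate number as a block, 1 was called, FANCG. The FANCI call was lost without any 1 si-A1 array or si-A2 replicate 1 or 4, and the FANCG call without any 1 of 9 of the 11 arrays, all but scramble replicate 3 and si-A2 replicate 3. FANCC was 0.67 higher (adjusted p = 0.0127), and BRIP1 at least 1.62-fold higher (adjusted p = 0.0330). The FANCE value pointed the other way, with a log2 difference of -1.08 for si-A2 against si-A1 (adjusted p = 0.0663, not called). Only 1 of its 3 si-A2 arrays was well above background.

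The effect of each siRNA at 48 h was also tested against its effect at 24 h, over 35804 probes common to both array versions. No member, read by its brightest 24 h probe, was called for si-A1 or si-A2 in either direction, against 0.159% and 0.0335% of the probes. After si-A1 the shift was -1.0 for FANCD2 (adjusted p = 0.242) and -0.91 for FANCI (95% interval -1.39 to -0.43, adjusted p = 0.0699). After si-A2 it was 1.05 for FANCA (adjusted p = 0.0492), toward the control. BRIP1, not measured above background in 1 of the groups compared for each siRNA, is given no shift. The 10-spot FANCA probe shifted by 1.62 after si-A1 (adjusted p = 0.0250). Each time point had an array version of its own, so time and version cannot be told apart.

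The rest of the pathway was read from 29 further genes, of which 28 had a tested probe at 24 h and 29 at 48 h. After si-A1, 7 were called lower at 24 h and 12 at 48 h, and 1 was called higher at 48 h. After si-A2, 5 were called lower at 24 h and 0 at 48 h. The medians were -0.56 and -0.74 after si-A1 at 24 h and 48 h, and -0.51 and -0.36 after si-A2. With genes that had only a bound set to it, they were -0.50 and -0.74 after si-A1 and -0.37 and -0.35 after si-A2.

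FANCB, a core complex subunit, fell by 1.56 and 1.41 at 24 h after si-A1 and si-A2 (adjusted p = 0.00129 and 0.00259) and by 1.93 after si-A1 at 48 h. CENPX, part of the module that holds the complex on DNA, had log2 fold changes of -0.08 at 24 h and -1.25 at 48 h after si-A1 (adjusted p = 0.862 and 8.25e-05). UBE2T, the conjugating enzyme that works with FANCL, and USP1, which takes the ubiquitin off FANCD2, fell by 1.40 and 1.47 after si-A1 at 48 h.

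Among the recombination genes, BRCA1 was at least 2.17-fold and 1.84-fold lower at 24 h after si-A1 and si-A2 and at least 4.29-fold lower after si-A1 at 48 h. No array of these siRNA groups was well above background for it. After si-A2 at 48 h all 3 arrays were, with a log2 fold change of -1.13 (adjusted p = 0.0556, not called). RAD51C and XRCC2, which act in recombination, fell by 0.92 and 0.74 after si-A1 at 48 h, and RFWD3, a ubiquitin ligase of this step, by 1.53 at 24 h and 1.81 at 48 h. Of the genes that resolve recombination structures, the helicase BLM fell by 2.40 after si-A1 at 24 h and was at least 2.74-fold lower after si-A2. Its partner TOP3A fell by 0.83 and 1.06 after si-A1 at 24 h and 48 h, and RMI2 fell by 1.34 and 1.50 after si-A1 and si-A2 at 24 h. The nuclease subunit EME1 fell by 1.17 after si-A1 at 48 h, while ERCC1, a subunit of another nuclease, was the gene that rose (0.64, adjusted p = 0.00397).

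Between the siRNAs, 6 of these genes were called higher with si-A2 than with si-A1 at 48 h, among them BLM, BRCA1, CENPX, FANCB and RFWD3. The 14 pathway genes called in no comparison with a probe at 24 h had medians of -0.13 after si-A1 and -0.09 after si-A2, also with bounds. The highest values were 0.33 and 0.21. FAAP24 was not well above background on any siRNA array there and was at least 1.49-fold and 1.26-fold lower (adjusted p = 0.0266 and 0.0199, not called).

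Genes of cell division moved in the same samples. Of 15 proliferation markers, such as MKI67, TOP2A and MCM2, 15 were called lower with si-A1 and 13 with si-A2 at 24 h, with medians of -1.62 and -1.89. At 48 h the counts were 15 and 3, and the medians -2.31 and -1.16, and with the replicate number as a block the si-A2 count was 0. All 15 had a negative log2 fold change in each of the 4 comparisons with scramble, and their part in the values of the Fanconi anemia genes was not tested.

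**Figure D4:**
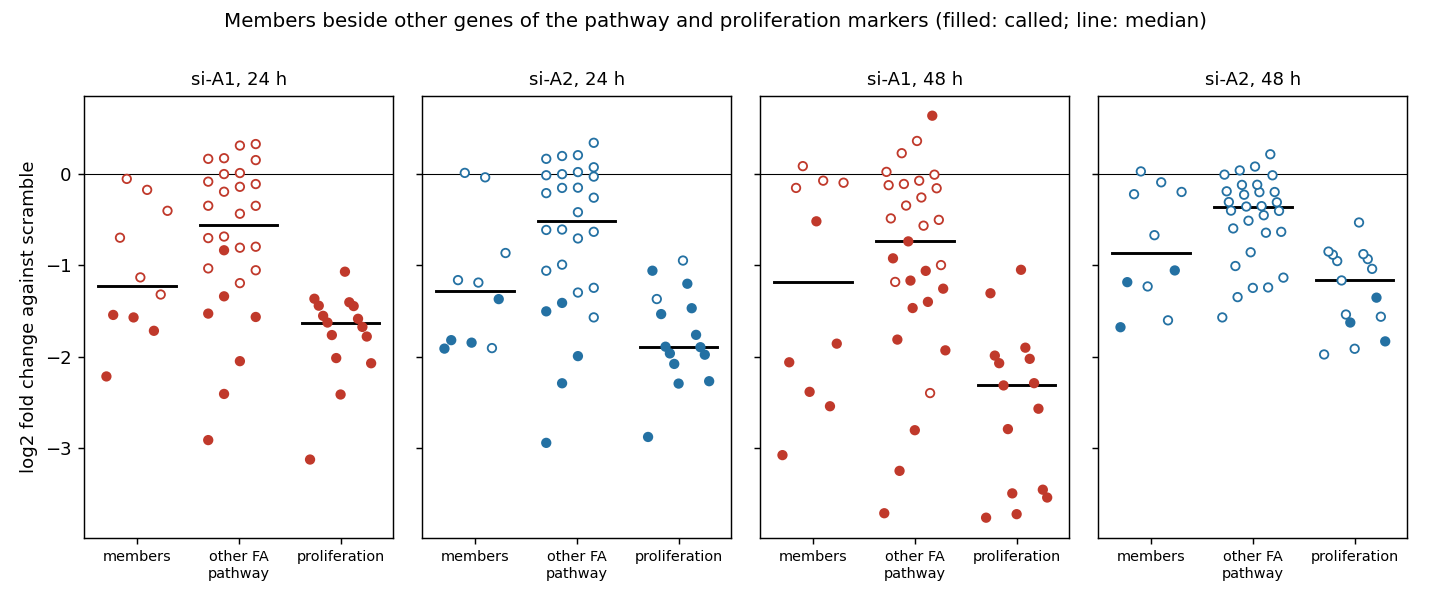
Log2 fold change against scramble (y axis) of the 10 members, the other genes of the pathway and the proliferation markers (x axis), after each siRNA at each time point. Each point is a gene read by its brightest probe at that time point, filled where called, and black lines are medians. The proliferation markers all lie below 0 in the 4 comparisons, while members and other pathway genes lie on both sides of 0 or reach close to it.

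The mean level of FANCD2 and FANCI over the 12 arrays at 24 h was set against 19406 other genes. The genes most like it were PRC1 (r = 0.984), a protein of the dividing spindle, CDKN2C (0.984), an inhibitor of cyclin-dependent kinases, PLK4 (0.981), a kinase of centriole duplication, HELLS (0.977), a chromatin remodeller, and WDHD1 (0.977), a replication protein. Over the 11 arrays at 48 h their r lay between 0.89 and 0.99. Of the other members, FANCA (0.97) and FANCG (0.94) came closest to that mean at 24 h, and FANCF (0.04) and PALB2 (0.31) were the least like it. These are Pearson correlations given as a description, over arrays that share the 3 siRNA groups.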

How the data were processed

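Expression was measured with 1 one-colour Agilent array for each of 24 LNCaP samples. The authors deposited Feature Extraction output, in which the processed intensity of each spot is background-subtracted and not normalized between arrays. The authors also deposited a table of log2 values, which match quantile-normalized log2 processed intensities to within 0.0528 at 24 h and 0.219 at 48 h. Per the submitters' processing notes R 3.4.3 and limma 3.34.8 were used.

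Here log2 processed intensities were quantile-normalized per time point, outlier spots set aside, and repeated spots averaged. For the test of 48 h against 24 h, the arrays of both time points were instead quantile-normalized together, after the averaging. Probes were tested if brighter on at least 3 arrays than the 308 negative control spots by their mean plus 3 SD (44849 probes at 24 h, 45173 at 48 h), with at least 2 values per group. RefSeq accessions named 57.4% and 53.4% of probes. All 3 siRNAs at each time point were fitted together in limma 3.58.1 (R 4.3.3, statmod 1.5.0) with the slide as an additive term. Adjusted p-values are Benjamini-Hochberg over all probes tested, with calls at 0.01 and a log2 fold change of 0.5. Array number and signal over background limit the precision. The fit was tested on simulated data.

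At 48 h same-numbered samples deviated together from their group means (r from 0.18 to 0.35 over 10 pairs). These numbers also share a slide, and samples of different number reached an r of 0.29. With the slide removed, the same-number r ran from -0.26 to -0.01. Its removal also made r negative between samples of different number on the same slide. On the slide of replicates 1 and 2, same-number r ran from -0.26 to -0.06 and different-number r from -0.26 to -0.16. On that of replicates 3 and 4 they ran from -0.14 to -0.01 and from -0.19 to -0.11. These values do not decide whether the numbers pair the samples within a slide. The main fit held the slide, and the replicate number as a block was run as an alternative. At 24 h r ran from -0.15 to 0.16 over 12 pairs, and the numbers did not pair the samples.

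Named are all members, the pathway genes called in any comparison (some items are not reported here), TAPIR-2, and the 5 genes most like FANCD2 and FANCI. Members, classes and lists were chosen with earlier results of these data known. The alternatives were 75th percentile scaling, no background correction, normexp (offset 50), the authors' log2 table, other slide, replicate, filter and probe settings, a log2 fold change of 1, and each array left out in turn.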

Additional observations from a re-analysis of the deposited data

Results flagged for a closer look

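In 49 groups of 4 arrays, Dixon's test at the 95% level picked out 4 arrays that stood apart from the other 3 of their group, where chance alone gives about 1 in 20 groups. BRIP1 at 24 h after si-A2 was 3.49 on replicate 3, not well above background, and 2.34 to 2.41 on the other arrays, and it was called lower when replicate 3 was left out. FANCL at 24 h after si-A2 was 4.85 on replicate 2 and 5.53 to 5.64 on the others. FANCD2 at 48 h after si-A1 was 5.19 on replicate 4 and 4.08 to 4.26 on the others. FANCI at 48 h after si-A1 was 5.90 on replicate 2 and 5.46 to 5.51 on the others, all far below scramble.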

How the results depend on the processing

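Of 586 values of single members against scramble under alternatives other than leaving out an array, 531 kept their direction and their side of the threshold, 33 lost a call, 13 gained one and 9 changed sign. Of 460 with 1 array left out, 387 kept both, 60 lost a call, 3 gained one and 10 changed sign. No called value changed sign. The 24 h calls of FANCI, FANCA and FANCG held under every alternative run, as did that of FANCI after si-A1 at 48 h.

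The count of members called at 48 h depended on the setting. After si-A2 it went from 3 to 1 without a slide term or with the interquartile range filter, to 2 with 75th percentile scaling or no background filter, and to 0 with the replicate block, with only the groups compared or with the dim array kept in. Between si-A2 and si-A1 it went from 2 to 1 without a slide term, with the replicate block or with the interquartile range filter, and to 0 with only the groups compared or the dim array. After si-A1 it went from 6 to 1 with the dim array, which over all probes left 26 lower and 1 higher, from 1799 and 963. With the dim array FANCC between si-A2 and si-A1 went from 0.67 to -0.55. When 1 array at a time was left out, the members called ran from 3 to 4 after si-A1 and from 3 to 5 after si-A2 at 24 h, from 4 to 6 and from 0 to 1 at 48 h, and from 0 to 2 between the siRNAs at 48 h. The replicate block left 3 and 4 members called at 24 h and 5 after si-A1 at 48 h, and changed no call of a member other than those of FANCC and PALB2 after si-A1, FANCI, FANCC and FANCG after si-A2 and FANCI between the siRNAs. The count between the siRNAs at 24 h and both counts of a changed effect stayed at 0 in all alternatives run. The cause was not tested.

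The other signs that turned were of values close to 0. FANCA at 48 h, read by its 10-spot probe, became -0.65 and -0.37 after si-A1 and si-A2 with the median of its probes, and -1.39 and -0.76 with the probe that was brightest at 24 h, an alternative chosen after seeing the data. With arrays left out its si-A2 value ran from -0.115 to 0.22. FANCF became 0.13 and -0.0074 at 24 h and 0.0277 after si-A1 at 48 h with the median of its probes, and 0.22 after si-A2 at 48 h with the dim array. With arrays left out its 24 h values ran from -0.142 to 0.0433 after si-A1 and from -0.0851 to 0.109 after si-A2. PALB2 after si-A2 at 24 h became 0.0017 with 75th percentile scaling and ran from -0.104 to 0.0736, and FANCL after si-A1 at 48 h ran from -0.176 to 0.0503. Of all calls after si-A1 at 48 h 65.1% were lower, 82.2% without a slide term and 77.5% with the slide as a random block. Between the siRNAs at 48 h 32.2% were lower, and 19.5% with the replicate block. Keeping the dim array moved the median of all probes after si-A2 at 48 h from 0.00 to -0.13.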
